A study of Mus musculus with 6 samples.

Results

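Cholesterol synthesis in the liver and its feedback control were followed through 29 genes, which were chosen by name for their known roles, with no measured value in the rule. The choice was made with earlier results of these data known, so shares set beside those of all genes only describe the list. They make up 29 of the 56674 rows of the count table. There were 8 enzymes of the mevalonate arm, 11 enzymes from squalene to cholesterol, 4 genes of the SREBP2 control circuit and 6 genes of sterol transport, esterification, uptake and export. All 29 passed the filter on low counts and were among the 18043 genes tested.

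The libraries came from the livers of male C57BL/6 mice given either normal chow or the same kind of food with polyethylene microplastic (PE-MP) over 71 weeks, with 3 libraries per chow. The study asked what prolonged intake of the plastic does to hepatic gene expression. The labels give no dose, particle size, age at the start, batch, cage or fasting state, nor do they tie each library to its own animal, so a p-value measures library-to-library spread alone, and that may be technical. Library totals were 68357478 to 112566641 counts under normal chow, against 75176645 to 91898953 under PE-MP chow.

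Cholesterol is built from acetyl-CoA. The mevalonate arm makes isoprene units and joins them into farnesyl diphosphate, squalene synthase and squalene epoxidase commit them to sterols, and a chain of demethylations, reductions and isomerisations turns lanosterol into cholesterol. SREBP2 is a membrane-bound transcription factor that switches these enzymes on when sterol is scarce: SCAP escorts it out of the endoplasmic reticulum, and the INSIG proteins hold SCAP back when sterol is plentiful. Sterol excess is instead esterified by SOAT2, loaded onto lipoproteins through ABCA1, or secreted into bile by the ABCG5 and ABCG8 pair.

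SREBP2 acts close to the start site of its target genes, often beside the factor NF-Y, whose box reads CCAAT. RefSeq promoter windows of the build GRCm38.p6, each from 250 bases before to 50 after a start, matched 23 of the 29 genes by symbol. On both strands, CCAAT was found in 20 of these 23 genes (87.0%) and in 15 of the 16 matched synthesis enzymes (93.8%), against 41.1% of all 27025 genes with a window. The GC box GGGCGG was found in 19 of 23 (82.6%), against 38.2% of all genes. Among other genes of the sterol pathway with a window, CCAAT was found in 21 of 38 (55.3%) and GGGCGG in 27 of 38 (71.1%). TCACNCCAC, a core of the sterol regulatory element, was found in 1 of the 23, Hmgcs1, against 1.44% of all genes. These matches describe letters in a window and not bound sites, and a gene may have several windows. Only these exact letters were searched, so an element spelled otherwise was not counted, and a gene without a match may still hold one.

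The promoters shown are those of the 5 enzymes whose level was lower in every PE-MP library than in every normal chow library, of Insig1, whose mean level was the same in both chows, and of Abcg8, which shares its promoter region with Abcg5. Each is written 5′ to 3′ along the gene. Capitals mark CCAAT, or ATTGG where the box lies on the opposite strand, and in Hmgcs1 also the element TCACCCCAC, which starts 137 bases before the start site.
Hmgcs1, chr13:119690101-119690400, plus strand: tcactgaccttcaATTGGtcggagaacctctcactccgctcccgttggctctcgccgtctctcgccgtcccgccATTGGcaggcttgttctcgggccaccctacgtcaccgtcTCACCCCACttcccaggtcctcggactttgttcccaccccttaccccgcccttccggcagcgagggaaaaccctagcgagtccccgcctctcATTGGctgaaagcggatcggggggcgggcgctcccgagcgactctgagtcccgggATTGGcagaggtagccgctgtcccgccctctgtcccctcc
Pmvk, chr3:89454291-89454590, plus strand: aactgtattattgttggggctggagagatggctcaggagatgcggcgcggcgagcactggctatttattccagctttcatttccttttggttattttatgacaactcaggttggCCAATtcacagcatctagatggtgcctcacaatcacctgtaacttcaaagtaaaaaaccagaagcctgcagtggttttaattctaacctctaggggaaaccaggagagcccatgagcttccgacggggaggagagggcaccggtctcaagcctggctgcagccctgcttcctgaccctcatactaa
Cyp51, chr5:4104648-4104947, minus strand: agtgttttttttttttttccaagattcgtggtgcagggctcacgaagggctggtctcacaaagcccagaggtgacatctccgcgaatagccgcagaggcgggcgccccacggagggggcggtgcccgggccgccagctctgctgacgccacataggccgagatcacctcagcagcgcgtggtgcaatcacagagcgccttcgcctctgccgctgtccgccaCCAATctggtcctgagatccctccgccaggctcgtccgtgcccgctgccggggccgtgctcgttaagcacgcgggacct
Tm7sf2, chr19:6067801-6068100, minus strand: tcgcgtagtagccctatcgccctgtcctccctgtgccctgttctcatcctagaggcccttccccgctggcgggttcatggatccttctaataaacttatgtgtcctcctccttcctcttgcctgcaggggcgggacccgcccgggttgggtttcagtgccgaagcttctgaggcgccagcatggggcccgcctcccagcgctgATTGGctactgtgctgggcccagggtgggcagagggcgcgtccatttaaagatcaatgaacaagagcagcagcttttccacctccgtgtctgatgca
Nsdhl, chrX:72918271-72918570, plus strand: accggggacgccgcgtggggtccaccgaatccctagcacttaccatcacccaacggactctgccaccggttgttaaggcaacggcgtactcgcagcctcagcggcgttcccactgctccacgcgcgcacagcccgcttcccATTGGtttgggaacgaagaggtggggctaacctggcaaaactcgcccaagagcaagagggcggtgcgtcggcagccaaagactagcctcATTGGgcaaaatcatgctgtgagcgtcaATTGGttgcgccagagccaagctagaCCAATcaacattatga
Insig1, chr5:28071162-28071461, plus strand: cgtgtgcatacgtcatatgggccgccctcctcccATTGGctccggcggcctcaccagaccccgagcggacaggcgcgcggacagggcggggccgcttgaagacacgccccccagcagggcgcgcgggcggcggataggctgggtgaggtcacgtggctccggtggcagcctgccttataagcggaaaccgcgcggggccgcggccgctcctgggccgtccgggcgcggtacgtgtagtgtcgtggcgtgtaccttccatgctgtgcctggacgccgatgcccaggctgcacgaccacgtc
Abcg8, chr17:84682871-84683170, plus strand: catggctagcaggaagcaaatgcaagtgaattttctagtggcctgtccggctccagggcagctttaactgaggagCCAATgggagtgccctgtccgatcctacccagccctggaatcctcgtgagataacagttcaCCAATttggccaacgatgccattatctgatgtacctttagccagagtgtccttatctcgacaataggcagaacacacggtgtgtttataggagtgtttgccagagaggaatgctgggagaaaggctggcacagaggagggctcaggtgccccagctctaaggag
Hmgcs1 and Nsdhl each held 4 CCAAT boxes in this window, and Pmvk, Cyp51, Tm7sf2 and Insig1 held 1 each. Pmvk and Abcg8 each have another window in the table, without CCAAT. Abcg5 and Abcg8 are read in opposite directions from start sites 110 bases apart, and their windows share 209 bases.

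Some features of the libraries bear on all levels given here. Normal chow library 2 stood apart, with 11.2% of its counts on the 18S ribosomal row, the highest share of the 6 libraries. The 13 mitochondrial mRNAs took 14.2 to 15.1% of counts under normal chow and 8.63 to 9.19% under PE-MP chow, and 5 RNAs retained in the nucleus summed to 171 to 488 CPM (counts scaled to library size) under normal chow and to 389 to 700 CPM under PE-MP chow. The 8 hepatocyte markers summed to 62522 to 82632 CPM under normal chow and 68100 to 73620 CPM under PE-MP chow. For other cell types the ranges of summed CPM under normal and PE-MP chow were 129 to 172 and 171 to 285 for 10 Kupffer cell markers, 123 to 154 and 181 to 227 for 8 endothelial markers, 423 to 447 and 244 to 434 for 8 stellate cell and fibroblast markers, 19.5 to 184 and 17.4 to 27.7 for 7 B and plasma cell markers, 5.68 to 8.54 and 2.56 to 5.53 for 8 T and NK cell markers, 12.5 to 27.2 and 19.5 to 24.9 for 6 cholangiocyte markers, and 20.6 to 73.4 and 9.44 to 20.4 for 6 adipocyte markers. The fat cell genes Adipoq, Retn and Plin1 and the lymphocyte gene Gzma were at 0 counts in at least 1 library. Cidec was the largest part of the adipocyte sum in every library. Which cells the Cidec RNA came from was not tested, so this sum is no measure of fat cells. In library order, Cidec stood at 60.2, 14.0 and 43.3 CPM under normal chow and at 5.71, 11.5 and 14.5 CPM under PE-MP chow. The 4 adipocyte markers tested had negative log2 fold changes. Adipoq and Plin1 were too low to test. Adipoq had 0 to 2 counts under normal chow and 0 to 10 under PE-MP chow, and Plin1 0 against 0 to 7. The B and plasma cell maximum of 184 CPM was in normal chow library 2, where Igkc alone stood at 126 CPM. Igkc was at 0.143 and 0.118 CPM in normal chow libraries 1 and 3, and at 9.37 to 20.1 CPM under PE-MP chow. All 7 B and plasma cell markers had negative log2 fold changes, against 48.3% of all genes tested. Other lists were as one-sided. All 8 T and NK cell markers and all 13 mitochondrial mRNAs had negative log2 fold changes. All 10 Kupffer cell markers, all 8 endothelial markers and all 5 nuclear RNAs had positive ones, against 9321 of the 18043 genes tested. The part of these differences in the results was not tested, and in whole liver fewer cells of a type cannot be told apart from less RNA per cell.

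Levels are CPM scaled by edgeR's trimmed mean of M-values (TMM) factors, and fold changes are log2 ratios of PE-MP to normal chow with their standard error (SE). Of the 29 genes, 0 passed edgeR's quasi-likelihood test at an adjusted p of 0.05 over all genes, where 0.00554% of all genes tested passed. The smallest adjusted p in the group was 0.128. At an unadjusted p under 0.05 there were 7 lower and 0 higher genes, or 24.1% lower, against 8.82% lower and 9.1% higher among all genes. DESeq2 called 7 lower and 0 higher (2.57% and 2.65% of all genes it could adjust) and limma-voom called 0. The 7 genes DESeq2 called were Hmgcs1, Pmvk, Fdps, Cyp51, Tm7sf2, Nsdhl and Soat2, the same 7 that edgeR had at an unadjusted p under 0.05.

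The median log2 fold change was -0.30 over the 29 genes and -0.53 over the 19 synthesis enzymes, against 0.02 over all genes tested. Of the 29, 21 had a negative fold change (72.4%, against 48.3% of all genes), and of the 19 enzymes 15 did (78.9%). By role the medians were -0.65 for the mevalonate arm, -0.38 from squalene to cholesterol, -0.12 for SREBP2 control and 0.01 for transport and export. In the heat map of levels by library, low values under PE-MP chow stand in the rows of Hmgcs1, Pmvk, Fdps, Cyp51, Tm7sf2, Nsdhl and Soat2, among others. Summed over the 19 enzymes, normal chow libraries 1, 2 and 3 stood at 1293, 879 and 1343 CPM, and PE-MP libraries 1, 2 and 3 at 795, 834 and 914 CPM. Normal chow library 2 thus lay among the PE-MP libraries, below the highest of them.

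**Figure D1:**
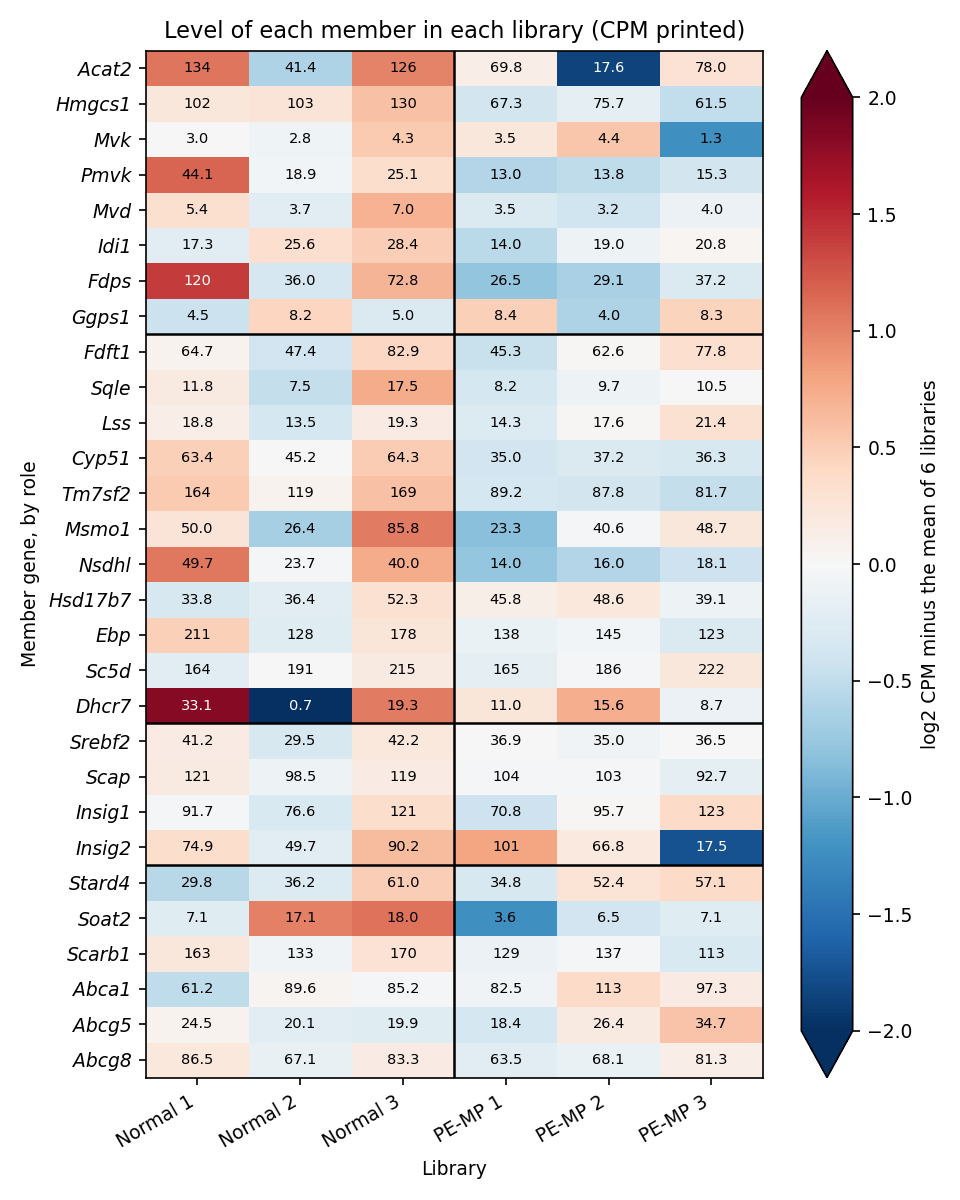
Heat map of the 29 genes, in rows by role, in the 6 libraries, in columns; the printed number is the TMM-scaled CPM and the colour is the log2 CPM minus that gene's mean over the 6 libraries, with the scale ending at 2 log2 units. Dhcr7 stood at 0.716 CPM in normal chow library 2, and Nsdhl between 14.0 and 18.1 CPM in the PE-MP libraries against 23.7 to 49.7 CPM under normal chow.

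**Figure D2:**
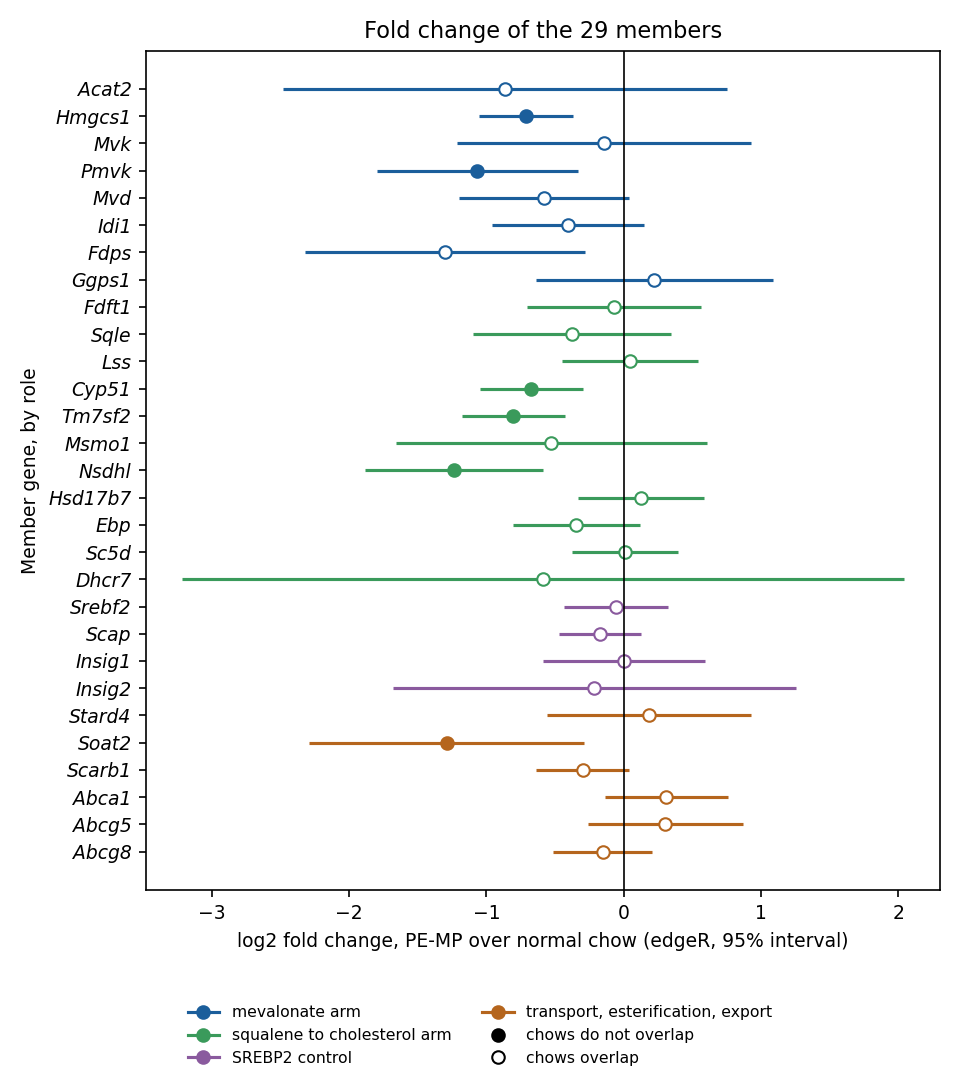
log2 fold change of PE-MP over normal chow for each of the 29 genes, with its 95% interval from edgeR, coloured by role; filled points mark genes whose chows did not overlap. The intervals of Hmgcs1, Pmvk, Fdps, Cyp51, Tm7sf2, Nsdhl and Soat2 lie below 0, and that of Dhcr7 spans -3.22 to 2.04.

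The mevalonate arm opens with Acat2, the cytosolic thiolase that joins acetyl-CoA units. Here and below, the 3 values of a chow are given in the order of libraries 1, 2 and 3. Acat2 stood at 134, 41.4 and 126 CPM under normal chow and at 69.8, 17.6 and 78.0 CPM under PE-MP chow. Its level was low in library 2 of each chow, the chows overlapped, and the log2 fold change of -0.87 ± 0.66 (SE) had an interval from -2.48 to 0.75. Hmgcs1 makes HMG-CoA, the substrate of the reductase that yields mevalonate. Hmgcs1 was measured at 102, 103 and 130 CPM under normal chow and at 67.3, 75.7 and 61.5 CPM under PE-MP chow. All 3 PE-MP libraries lay below all 3 normal chow libraries, at a fitted ratio of 0.611 (log2 -0.71, SE 0.15, edgeR adjusted p = 0.128).

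Mvk and Pmvk phosphorylate mevalonate in succession. Mvk, at 3.01, 2.85 and 4.31 CPM under normal chow and 3.52, 4.42 and 1.28 CPM under PE-MP chow, overlapped between chows, with PE-MP library 3 the lowest of all. Pmvk was at 44.1, 18.9 and 25.1 CPM under normal chow and at 13.01, 13.8 and 15.3 CPM under PE-MP chow. The chows did not overlap for Pmvk, although normal chow libraries spread 2.33-fold, and the fitted difference was -1.07 ± 0.31 log2 units (SE; edgeR adjusted p = 0.177). Mvd, the decarboxylase that completes isopentenyl diphosphate, stood at 5.38, 3.68 and 7.0 CPM and at 3.53, 3.25 and 3.98 CPM. The chows overlapped for Mvd through normal chow library 2, and the interval of its log2 fold change, -1.20 to 0.04, included 0.

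Idi1, which isomerises isopentenyl diphosphate, went from 23.7 ± 5.77 to 17.9 ± 3.51 CPM (SD, n = 3 per chow), with overlapping chows and a log2 fold change of -0.41 ± 0.23 (SE). Fdps, which condenses isoprene units into farnesyl diphosphate, had the most negative log2 fold change of the 29 genes, -1.30 ± 0.42 (SE; edgeR adjusted p = 0.206). Its levels were 120, 36.0 and 72.8 CPM under normal chow and 26.5, 29.1 and 37.2 CPM under PE-MP chow, so normal chow library 2 lay within the PE-MP range. Ggps1, which extends farnesyl diphosphate for protein prenylation and so leads away from sterols, stood at 4.50, 8.20 and 5.01 CPM and at 8.43, 3.97 and 8.26 CPM. Ggps1 was the 1 member of this arm with a positive log2 fold change (0.22 ± 0.36 SE), and its chows overlapped fully.

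Between squalene and lanosterol, the first 3 enzymes overlapped between chows. Fdft1, squalene synthase, was at 65.0 ± 17.7 and 61.9 ± 16.3 CPM, Sqle, squalene epoxidase, at 12.3 ± 5.03 and 9.46 ± 1.18 CPM, and Lss, which closes the sterol rings, at 17.2 ± 3.23 and 17.8 ± 3.55 CPM under normal and PE-MP chow (SD, n = 3). The interval of the log2 fold change was -0.70 to 0.56 for Fdft1, -1.10 to 0.34 for Sqle and -0.45 to 0.54 for Lss.

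The next steps remove methyl groups from lanosterol, and here 3 enzymes had separate chows. Cyp51, the demethylase that acts first, was at 63.4, 45.2 and 64.3 CPM under normal chow and 35.0, 37.2 and 36.3 CPM under PE-MP chow. The PE-MP libraries lay within 1.06-fold of each other, and the fitted difference was -0.67 ± 0.16 log2 units (SE; edgeR adjusted p = 0.139). Tm7sf2, a sterol reductase, was at 164, 119 and 169 CPM and at 89.2, 87.8 and 81.7 CPM, again with separate chows (log2 fold change -0.80, SE 0.16, edgeR adjusted p = 0.128). Nsdhl, the dehydrogenase that takes part in removing the next methyl groups, was at 49.7, 23.7 and 40.0 CPM and at 14.0, 16.0 and 18.1 CPM. Its fitted difference, -1.24 ± 0.27 log2 units (SE; edgeR adjusted p = 0.135), was the most negative of the 11 enzymes in this arm. In all 3 genes normal chow library 2 was the lowest of its chow and still above every PE-MP library.

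The neighbours of Nsdhl in its reaction cycle did not part in this way. Msmo1, the methyl sterol oxidase that precedes Nsdhl, ranged from 26.4 to 85.8 CPM under normal chow and from 23.3 to 48.7 CPM under PE-MP chow (log2 fold change -0.53 ± 0.47 SE). Hsd17b7, the ketone reductase that follows Nsdhl, stood at 40.8 ± 10.01 and 44.5 ± 4.86 CPM (SD, n = 3), with an interval of -0.33 to 0.58. Differences between these enzymes' fold changes were not tested.

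At the end of the pathway, Ebp, a sterol isomerase, was at 211, 128 and 178 CPM under normal chow and 138, 145 and 123 CPM under PE-MP chow, with normal chow library 2 inside the PE-MP range. Sc5d, a desaturase, was at 164, 191 and 215 CPM and at 165, 186 and 222 CPM, and its log2 fold change of 0.01 ± 0.16 (SE) had an interval of -0.38 to 0.39. Dhcr7, whose product makes cholesterol from its last precursor, was the most uneven gene of the group. Its counts under normal chow were 2319, 43 and 1951, or 33.1, 0.716 and 19.3 CPM, and its PE-MP levels were 11.0, 15.6 and 8.69 CPM.

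Dhcr7 in normal chow library 2 was 26.9 times below the next lowest library of that chow. Such a gap of at least 10 times below both other libraries, each at 2 CPM or more, occurred in 0.224% of genes in that library, and Dhcr7 was the only 1 of the 29 genes to show it in any library. Without normal chow library 2, the log2 fold change of Dhcr7 went from -0.59 ± 1.08 to -1.16 ± 0.33 (SE; edgeR adjusted p = 0.0965). Gaps of at least 3 times were also found for Acat2 in normal chow library 2 and PE-MP library 2, and for Insig2 in PE-MP library 3. Gaps of that size occurred in 0.974%, 0.471% and 1.3% of genes in these 3 libraries. In the plot of uneven genes these libraries stand clear of the others of their chow, while Mvk in PE-MP library 3 lay 2.74 times below the next.

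**Figure D3:**
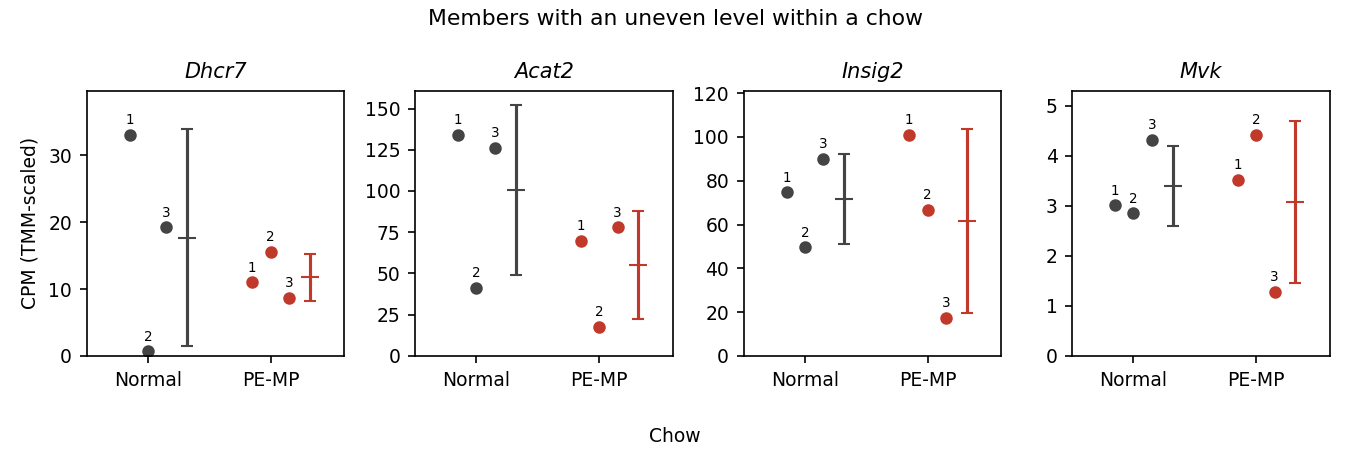
TMM-scaled CPM of Dhcr7, Acat2, Insig2 and Mvk in each library, numbered by replicate, with the mean and SD of 3 libraries beside the points. Dhcr7 was at 0.716 CPM in normal chow library 2, and Insig2 at 17.5 CPM in PE-MP library 3 against 101.03 and 66.8 CPM in the other PE-MP libraries.

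In the SREBP2 control circuit, the chows overlapped for all 4 genes. Srebf2, which encodes SREBP2, was at 41.2, 29.5 and 42.2 CPM under normal chow and 36.9, 35.0 and 36.5 CPM under PE-MP chow, with a log2 fold change of -0.06 ± 0.16 (SE) and an interval of -0.44 to 0.32. Scap, the escort protein, was at 112.7 ± 12.4 and 99.96 ± 6.31 CPM (SD, n = 3), a log2 fold change of -0.17 ± 0.13 (SE). Insig1, itself a well-known SREBP target, was at 91.7, 76.6 and 121 CPM and at 70.8, 95.7 and 123 CPM. Its mean was 96.3 CPM under normal chow and 96.5 CPM under PE-MP chow, and the interval ran from -0.59 to 0.59. Insig1 did not show the separate chows seen in Hmgcs1, Cyp51, Tm7sf2 and Nsdhl, although a difference of up to 0.59 log2 units in either direction lies within its interval and the contrast with those genes was not tested.

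Insig2, the relative of Insig1, was at 74.9, 49.7 and 90.2 CPM under normal chow and 101.03, 66.8 and 17.5 CPM under PE-MP chow. The PE-MP libraries spread 5.77-fold, so the log2 fold change of -0.21 ± 0.60 (SE) is poorly fixed. The ratio of Insig2 to Insig1 counts was 0.817, 0.650 and 0.748 under normal chow, against 1.43, 0.698 and 0.142 with PE-MP. Under PE-MP chow the balance between these genes thus varied more from library to library than between chows.

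Of the genes that handle sterol, Soat2, which esterifies cholesterol in hepatocytes for storage and lipoproteins, had the most negative fitted difference, -1.29 ± 0.42 log2 units (SE; edgeR adjusted p = 0.201). Soat2 stood at 7.14, 17.1 and 18.0 CPM under normal chow and 3.62, 6.53 and 7.13 CPM under PE-MP chow. The chows parted by the narrow step between 7.14 and 7.13 CPM, and they overlapped under each other scaling tried.

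Stard4, a carrier of cholesterol between membranes, was at 42.3 ± 16.5 and 48.1 ± 11.8 CPM, and Scarb1, the receptor that takes up cholesterol from high-density lipoprotein, at 156 ± 19.6 and 126 ± 12.4 CPM (SD, n = 3). The interval for Scarb1, -0.64 to 0.04, lay mostly below 0. Abca1, the exporter that loads lipid onto apolipoprotein A-I, was at 61.2, 89.6 and 85.2 CPM and at 82.5, 112.8 and 97.3 CPM. Its log2 fold change of 0.31 ± 0.19 (SE) was the most positive of the 29 genes, with overlapping chows.

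Abcg5 and Abcg8, which form 1 transporter for sterol into bile, share a promoter region but had different ratios across libraries. Abcg5 stood at 24.5, 20.1 and 19.9 CPM under normal chow and 18.4, 26.4 and 34.7 CPM under PE-MP chow. Abcg8 was at 86.5, 67.1 and 83.3 CPM and at 63.5, 68.1 and 81.3 CPM. The ratio of Abcg8 to Abcg5 counts was 3.54, 3.35 and 4.19 under normal chow, against 3.46, 2.58 and 2.34 with PE-MP, so PE-MP library 1 lay within the normal chow range and the other 2 below it.

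**Figure D4:**
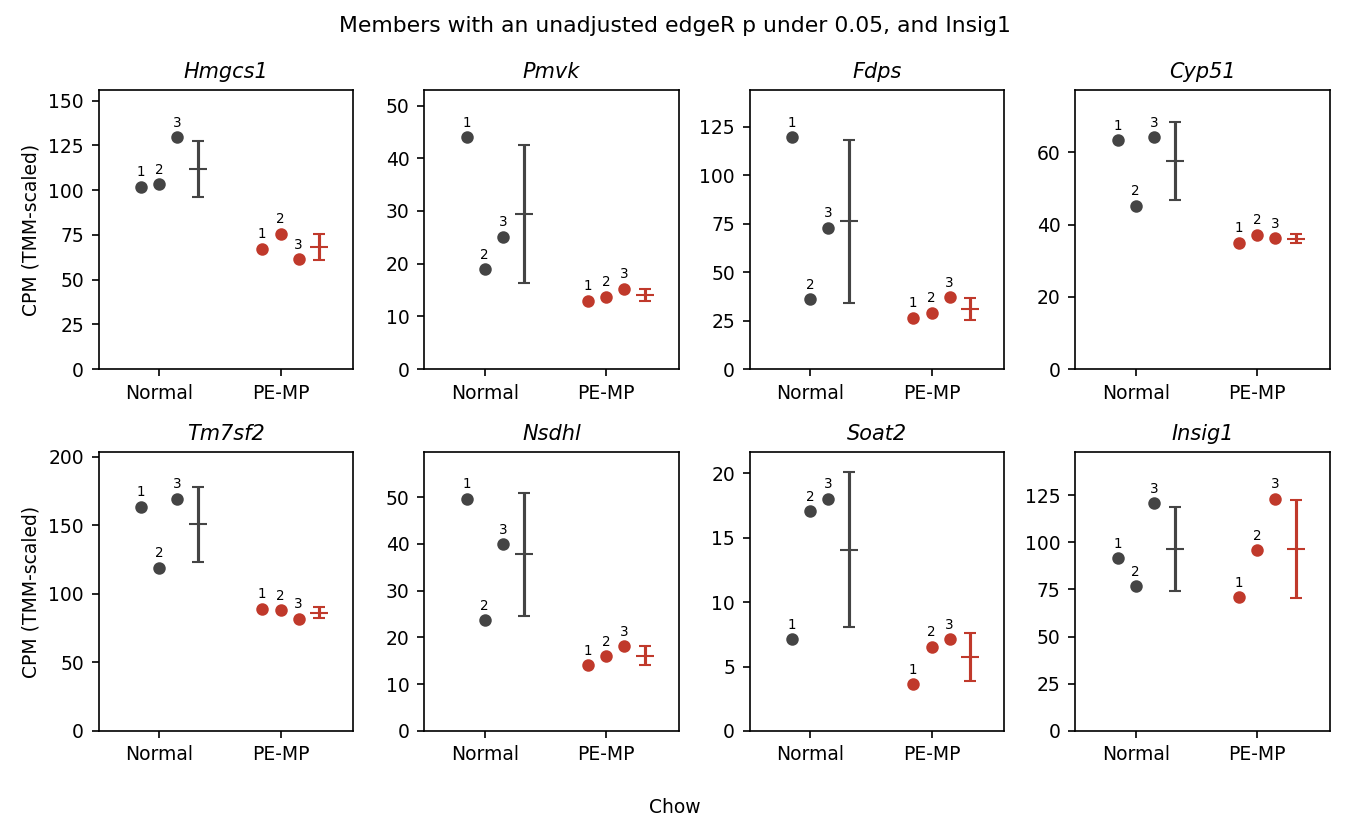
TMM-scaled CPM in each library, numbered by replicate, of the 7 genes with an unadjusted edgeR p under 0.05 and of Insig1, with the mean and SD of 3 libraries beside the points. The PE-MP libraries of Hmgcs1, Pmvk, Cyp51, Tm7sf2 and Nsdhl all lie below the normal chow libraries, Fdps overlaps through normal chow library 2 at 36.0 CPM, and Insig1 has means of 96.3 and 96.5 CPM.

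The chows did not overlap for 6 of the 29 genes, all lower under PE-MP chow (20.7%), against 11.8% lower and 14.2% higher among all genes tested. These were Hmgcs1, Pmvk, Cyp51, Tm7sf2, Nsdhl and Soat2, and 5 of the 6 are synthesis enzymes. With RLE size factors, with upper-quartile factors, or with mitochondrial and 18S rows left out, 5 were lower, Soat2 being the 1 that overlapped. Scaling by library totals alone raised the median log2 fold change of all genes to 0.32. On that scale 2 genes were lower without overlap, Hmgcs1 and Tm7sf2, against 2.65% of all genes, and 2 were higher, Srebf2 and Abca1, against 34.6% of all genes. The median of the 19 enzymes minus that of all genes was -0.55 with TMM and -0.54 with library totals.

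Single libraries moved these results. Without normal chow library 2, edgeR called 6 of the 29 genes lower, against 3.27% of all genes, and 0 higher, against 2.38%. These were Hmgcs1 (log2 fold change -0.77 ± 0.15 SE), Pmvk (-1.31 ± 0.25), Fdps (-1.64 ± 0.25), Cyp51 (-0.82 ± 0.09), Tm7sf2 (-0.95 ± 0.09) and Nsdhl (-1.49 ± 0.16), with edgeR adjusted p between 0.0325 and 0.0485. The enzyme median was -0.77 without that library and -0.32 without normal chow library 3, and the median from squalene to cholesterol was -0.03 without normal chow library 3. That library had the highest level of the 6 for 13 of the 29 genes and for 9 of the 19 enzymes (47.4%), against 18.6% of all genes tested. Normal chow library 2 was the lowest of its chow for 14 of the 19 enzymes (73.7%), against 38.9% of all genes.

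Transcript levels of different members were compared per kilobase of exon length, since longer transcripts collect more counts. That length joins the exons of all annotated transcripts of a gene and can exceed that of the transcript present in liver. Lss, at 10787 bases, had the longest, so levels per kb and their order are approximate. Under normal chow the highest level was that of Ebp, at 74.5 ± 18.1 CPM per kb, followed by Acat2 (39.5 ± 20.2), Sc5d (39.0 ± 5.31), Tm7sf2 (34.2 ± 6.25) and Insig1 (31.1 ± 7.22; SD, n = 3). For the 4 genes after Ebp, the ranges of mean ± SD overlapped, and the range of Ebp overlapped that of Acat2. The lowest levels were those of Ggps1 (1.25 ± 0.426 CPM per kb), Mvk (1.27 ± 0.301), Lss (1.597 ± 0.299) and Sqle (2.21 ± 0.907), also with overlapping ranges of mean ± SD. Within the pathway, levels per kb therefore differed far more between enzymes than between chows, and enzymes of high and of low level stood at neighbouring steps. Under PE-MP chow Tm7sf2 stood at 19.6 ± 0.911 CPM per kb, below Insig1 at 31.2 ± 8.44 and Sc5d at 39.3 ± 5.98.

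**Figure D5:**
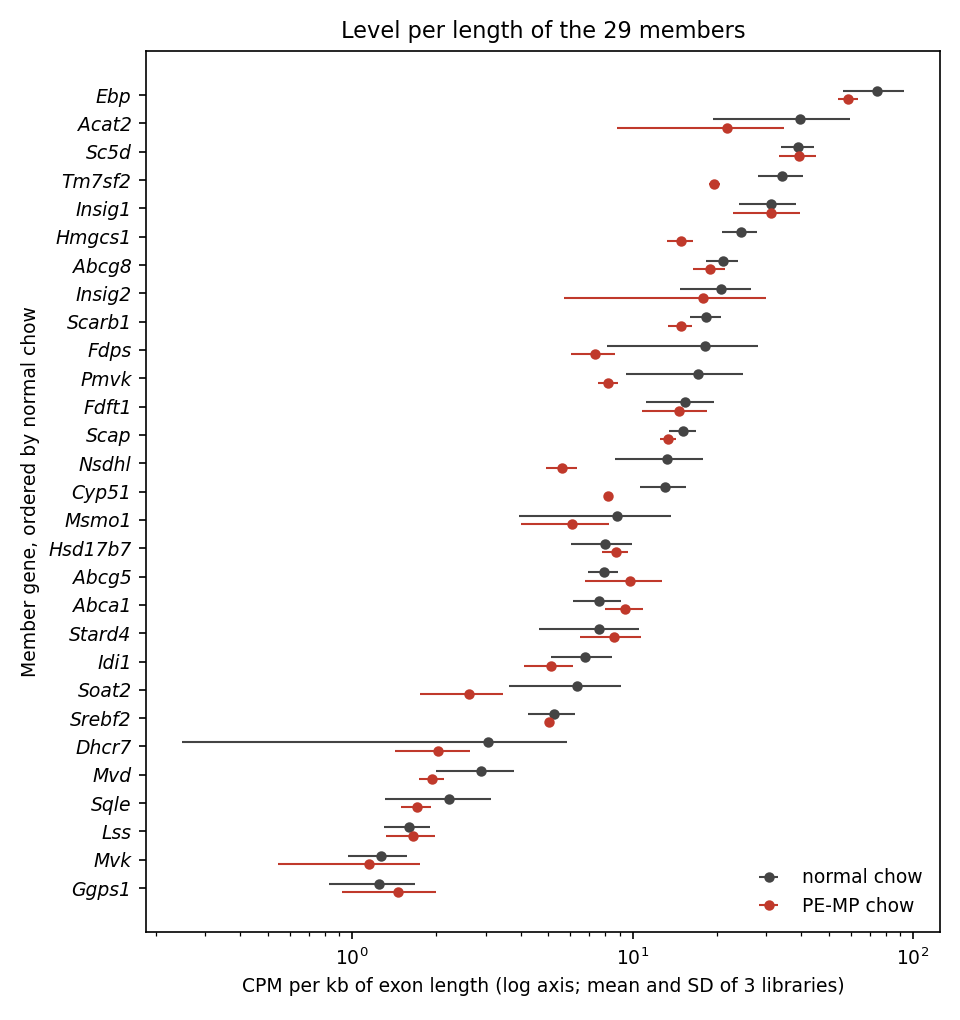
Mean CPM per kb of exon length of the 29 genes on a log axis, ordered by normal chow, with the SD of 3 libraries as bars, in grey for normal chow and red for PE-MP chow. Ebp is at the top with 74.5 CPM per kb under normal chow, against 58.7 under PE-MP chow, and Ggps1 at the bottom with 1.25 and 1.46.

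Other genes of the pathway were read from a list of 49, of which 47 were tested and 0 passed the edgeR adjusted p. At an unadjusted p under 0.05, 7 were lower (14.9%) and 3 higher, against 8.82% lower and 9.1% higher among all genes tested. The median log2 fold change was -0.09, against 0.02 over all genes. The 4 with the smallest p were Cyb5r3, Slc25a1, Gramd1b and Cyp7b1. Cyb5r3, the reductase that passes electrons through cytochrome b5 to the sterol desaturase and oxidase, was at 749, 432 and 619 CPM under normal chow and 323, 297 and 327 CPM under PE-MP chow (log2 fold change -0.93 ± 0.21 SE; edgeR adjusted p = 0.135). Slc25a1, the mitochondrial citrate carrier that feeds cytosolic acetyl-CoA, was at 308, 191 and 279 CPM and at 146, 150 and 159 CPM (-0.77 ± 0.19; edgeR adjusted p = 0.144). For both genes every PE-MP library lay below every normal chow library, with normal chow library 2 the lowest of its chow. Both were picked for a small p on this same contrast, so this separation follows largely from the choice. Of the 47 genes tested, 7 were lower without overlap (14.9%) and 6 were higher. Among all genes tested the shares were 11.8% lower and 14.2% higher.

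Gramd1b, which carries cholesterol from the plasma membrane to the endoplasmic reticulum, was the 1 of the 4 with a positive log2 fold change, 0.81 ± 0.20 (SE; edgeR adjusted p = 0.148), from 1.13 ± 0.00838 to 1.99 ± 0.239 CPM (SD, n = 3). Gramd1b counts were low, at 80, 68 and 114 under normal chow and 196, 141 and 234 under PE-MP chow. The small SD under normal chow is therefore no measure of how well that level is known. Cyp7b1, an oxysterol hydroxylase of bile acid synthesis, had one of -0.55 ± 0.17 (edgeR adjusted p = 0.192). Of the 4 genes of precursor supply, all had a negative log2 fold change, with a median of -0.48. Of the 11 genes of SREBP processing and turnover, among them the proteases Mbtps1 and Mbtps2, 0 had an unadjusted edgeR p under 0.05, the median was 0.01, and all 11 of the 95% intervals stayed inside 1 log2 unit on either side of 0. The LXR genes Nr1h2 and Nr1h3, whose products sense oxysterols, had log2 fold changes of 0.09 ± 0.26 and -0.14 ± 0.13 (SE).

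The size of difference that these data leave room for was uneven across the group. For 14 of the 29 genes (48.3%, against 8963 of the 18043 tested) the 95% interval stayed inside 1 log2 unit on either side of 0, among them Srebf2, Scap, Insig1, Sc5d, Lss, Hsd17b7, Scarb1, Abca1, Abcg5 and Abcg8. The SE of the log2 fold change ran from 0.13 for Scap to 1.08 for Dhcr7, with a median of 0.25. For Dhcr7, Acat2, Insig2, Msmo1, Mvk, Mvd and Sqle the interval included both 0 and a level lower by more than 1 log2 unit. With 3 libraries per chow, neither no difference nor a drop of that size was excluded for these genes.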

How the data were processed

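Livers were profiled by poly(A)-selected, strand-keeping RNA sequencing, per the labels' protocols. The deposited values are raw read counts per gene by symbol, whole numbers in 1 table with a column per library, and each column is identical to that library's own deposited count file. Per the submitters' processing notes the build was GRCm39 and bcl2fastq was used; aligner, counter, annotation and strand setting: not given in the sources used here. Without a known strand setting, overlapping antisense reads cannot be separated.

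From these counts, edgeR 4.0.16 in R 4.3.3 gave CPM with TMM factors, the filter on low counts (filterByExpr), the robust quasi-likelihood test of PE-MP against normal chow over all 6 libraries, and Benjamini-Hochberg adjustment over 18043 genes, with a threshold of 0.05. DESeq2 1.42.0, limma-voom 3.58.1 and 13 further settings were alternatives, including each library left out, beside a threshold of 0.1; scaling by library totals alone was added after seeing the data. The code was tested on simulated data. Exon lengths came from GENCODE M21 (GRCm38) by symbol, and promoter windows from RefSeq (GRCm38.p6); their coordinates were not used with the GRCm39 counts. Of the 29 genes all are named, and of the other pathway genes the 4 with the smallest edgeR p; the rest is given by counts, sums and a few defining genes. The genes, lists and rules were chosen with earlier results of these data known.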

Additional observations from a re-analysis of the deposited data

How the results depend on the processing

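Of the 29 genes, 0 passed the edgeR threshold with TMM, and the count was 7 with DESeq2 and 0 to 6 when 1 library was left out, the 6 arising without normal chow library 2. With limma-voom, RLE or upper-quartile factors, either other filter, an adjusted p of 0.1, or without mitochondrial and 18S rows, 0 passed. With no scaling factors, the median log2 fold change of the 29 genes was -0.0030, against -0.30 with TMM, and 2 genes were lower without overlap, against 6; the cause was not tested, but relative to the median of all genes the value was -0.32 on both scales. Leaving out 1 library gave medians of -0.40 to -0.12 for the 29 genes and of -0.77 to -0.32 for the 19 enzymes. With the replicate number as a replicate block, 0 of the 29 genes passed, the smallest adjusted p in edgeR was 0.243, and the medians were -0.30 and -0.40; same-numbered libraries had correlations of 0.050, 0.085 and 0.184, so the numbers were not taken to pair them, and not every library correlated best with its own number. The sign of the fold change differed from TMM at least once in 11 of the 29 genes over the 15 alternatives, all of which had intervals including 0.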
